A study of Mus musculus with 42 samples.

Results

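The 37 genes described here encode proteins that license replication origins, unwind and copy DNA, finish copied strands, supply nucleotides and remove uracil from DNA. They were chosen by role and by name, and all 37 of them are among the 21674 genes in the deposited table. The study asked how low, disturbed blood flow changes RNA, and in particular splicing, in the endothelium that lines an artery. RNA was flushed from the intima of mouse carotid arteries with lysis buffer, and each library was made from a pool of 3 to 5 arterial flushes. Partial ligation of the left carotid gave the low-flow artery, the right carotid of the same mice gave the high-flow artery, and a sham operation gave a further control.

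The untreated set held 3 pools each of low-flow, high-flow and sham carotids taken 48 hr after surgery from male C57BL/6J mice aged 6 to 7 weeks. The depletion set held 14 libraries, 2 for each of 7 groups, also taken at 48 hr from male C57BL/6J mice aged 6 to 7 weeks. Its 10 low-flow libraries came from mice given control IgG, anti-GPIba antibody against platelets (50 µg at ligation), anti-Gr1 antibody against neutrophils (25 µg, 24 hr before ligation), PBS liposomes or clodronate liposomes against macrophages. Its 4 high-flow libraries came from the mice given IgG or PBS liposomes. A further low-flow library with PBS liposomes and another with clodronate liposomes were sequenced with the untreated set. The Rbfox2 set was taken 7 days after ligation, with 3 low-flow and 2 high-flow libraries from mice homozygous for Rbfox2 lox that carried Cdh5(PAC)-CreERT2, which drives tamoxifen-dependent Cre in endothelial cells, and the Rosa26-mTmG reporter (EC-KO), and the same numbers from littermate controls without Cre, which carried Rosa26-mTmG and homozygous Rbfox2 lox. These mice were males and females aged 2 to 7 months. Cultured cells gave 7 libraries without replicates. A line of TetOn-SV40T immortalized aortic endothelial cells, with SV40T expression off, was left untreated or given platelets and macrophages, 10% plasma, or all of these for 48 hr. Primary cultures came from eGFP+ cells after 5 days and from EC-KO and control cells after 7 days. The line and the eGFP+ cells came from mice that carried Cdh5(PAC)-CreERT2 and Rosa26-mTmG.

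A eukaryotic cell copies its genome once per cycle. Origins are licensed in G1, when the origin recognition complex, CDC6 and CDT1 load the ring of MCM2 to MCM7 proteins onto DNA, and the ring becomes an active helicase in S phase once CDC45 and the GINS complex join it. Primase and polymerase alpha lay down primers, the RFC complex loads the PCNA clamp, polymerases delta and epsilon extend the strands, and FEN1 and LIG1 process and join the lagging-strand fragments. Most of these genes are transcribed when E2F factors are released from RB family proteins as a cell leaves quiescence, and adult arterial endothelium is mostly quiescent.

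Positions of the 37 genes were available in mm9, the build of the deposited table. Mcm6 lies at chr1:130228168-130256233 on the minus strand, Mcm5 at chr8:77633427-77652338 on the plus strand, Pcna at chr2:132074898-132079050 on the minus strand, Rrm2 at chr12:25393106-25399011 on the plus strand and Tk1 at chr11:117676840-117687406 on the minus strand. Promoter windows of 300 bases, running from 250 before to 50 after an annotated start, were available from RefSeq on GRCm38.p6 for 30 of the 37 genes, in 34 windows. The letters TTTCCCGC, TTTGGCGC, TTTCGCGC or TTTGCCGC, which are forms of the E2F motif, were searched on both strands and were present in 12 of the 34 windows (35.3%), against 744 of 32851 windows of all genes (2.26%). These 4 windows are shown because they span the range from several matches to none among genes described below. The capitals mark the E2F letters, and each sequence runs 5′ to 3′ on the strand of the gene. The Mcm6 window is chr1:128359656-128359955 (minus strand), the Mcm5 window chr8:75109259-75109558 (plus strand), the Tk1 window chr11:117825965-117826264 (minus strand) and the Rfc1 window chr5:65335590-65335889 (minus strand).
Mcm6: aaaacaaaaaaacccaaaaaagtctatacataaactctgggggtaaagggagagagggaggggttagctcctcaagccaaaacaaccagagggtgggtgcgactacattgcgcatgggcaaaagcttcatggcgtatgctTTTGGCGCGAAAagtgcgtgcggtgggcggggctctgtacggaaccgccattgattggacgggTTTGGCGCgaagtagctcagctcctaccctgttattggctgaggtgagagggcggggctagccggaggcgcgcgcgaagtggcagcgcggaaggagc
Mcm5: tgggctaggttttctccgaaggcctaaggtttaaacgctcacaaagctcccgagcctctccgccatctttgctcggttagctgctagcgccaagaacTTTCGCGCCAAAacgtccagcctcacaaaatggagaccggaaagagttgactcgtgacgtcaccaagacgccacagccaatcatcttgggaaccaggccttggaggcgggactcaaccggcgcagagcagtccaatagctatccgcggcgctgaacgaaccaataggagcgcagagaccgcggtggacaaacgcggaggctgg
Tk1: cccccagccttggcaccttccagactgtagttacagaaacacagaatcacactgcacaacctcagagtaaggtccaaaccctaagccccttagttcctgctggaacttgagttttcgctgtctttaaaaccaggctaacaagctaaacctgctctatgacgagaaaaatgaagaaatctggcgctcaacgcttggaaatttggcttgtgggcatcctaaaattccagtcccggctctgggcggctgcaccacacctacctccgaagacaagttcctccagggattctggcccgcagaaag
Rfc1: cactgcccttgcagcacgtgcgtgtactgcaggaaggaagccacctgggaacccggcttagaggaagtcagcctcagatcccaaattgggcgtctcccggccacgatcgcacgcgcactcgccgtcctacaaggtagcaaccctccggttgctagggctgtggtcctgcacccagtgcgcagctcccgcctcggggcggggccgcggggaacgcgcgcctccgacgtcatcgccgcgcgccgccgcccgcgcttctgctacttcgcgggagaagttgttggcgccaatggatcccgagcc
The Mcm6 window holds 3 matches and the Mcm5 window 2, whereas the Tk1 and Rfc1 windows hold none. In both the Mcm6 and the Mcm5 window 2 of the matches lie on opposite strands and overlap, and are capitalised as a single run. On either strand, the CCAAT box was found in 52.9% of the windows of the 37 genes and 37.4% of all windows, the GC box letters GGGCGG in 70.6% and 35.7%, and the letters TTTGAA of the CHR element in 8.82% and 17.9%. A match is a description of the letters and does not show that a factor binds.

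Levels are given as TMM-scaled FPKM, that is, the deposited expected count per kilobase of effective transcript length and scaled to the counts of the library as FPKM is, divided by a TMM scaling factor computed over all 42 libraries. Levels of different genes can therefore be compared. Differences are log2 fold changes ± SE from edgeR's quasi-likelihood test, called at an adjusted p under 0.05. Total counts per library ran from 4064477 to 6794904 in the untreated set, from 12286104 to 19035957 in the depletion set and from 10318685 to 18633538 at 7 days. The sets used reads of different length and are not compared with each other by level. Low-flow pools a and b of the untreated set stood apart, with 22.8% and 23.5% of their counts in their 10 most abundant genes against 10.4% in pool c. Their TMM factors were 0.438 and 0.444 against 0.914. Scaling by library totals alone shifted the median of all genes by -0.69 in low against high flow, where TMM left it at -0.07, so changes are given relative to the TMM-scaled median. In the depletion set the 10 low-flow libraries carry another sequencing run in their names than the 4 high-flow libraries, and flow and run cannot be told apart there. The 11 endothelial markers summed to between 1970 and 5732 in the 35 artery libraries. In the 4 libraries of the cell line they summed to between 92.6 and 123, with Pecam1 at 42.4 to 65.7, Esam at 17.6 to 23.2, Emcn at 7.96 to 39.6 and Erg at 0.0254 to 0.14. Primary EC-KO and control cultures, sequenced at the same read length as the line, summed to 2349.9 and 2187, far above the line. Nothing in the labels says which mice entered which pool, and p-values measure the spread between these pools.

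Between low-flow and high-flow carotids at 48 hr, the genes of replication rose almost as a whole. Of the 37 genes, 34 were higher in low flow and none lower, where 23.6% of the 11236 genes tested were higher. The median log2 fold change of the 37 was 2.64, against -0.07 over all genes tested. In 35 of the 37, all but Gins4 and Rpa1, every low-flow pool exceeded every high-flow pool, which was true of 26.2% of all genes. The summed level of the 37 was 3118, 3127 and 1658 in the low-flow pools, 528, 546 and 516 in the high-flow pools and 625, 497 and 987 in the sham pools. Pool c was the lowest of the low-flow pools and sham pool c the highest of the sham pools, and the low-flow and sham pools did not overlap.

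**Figure D1:**
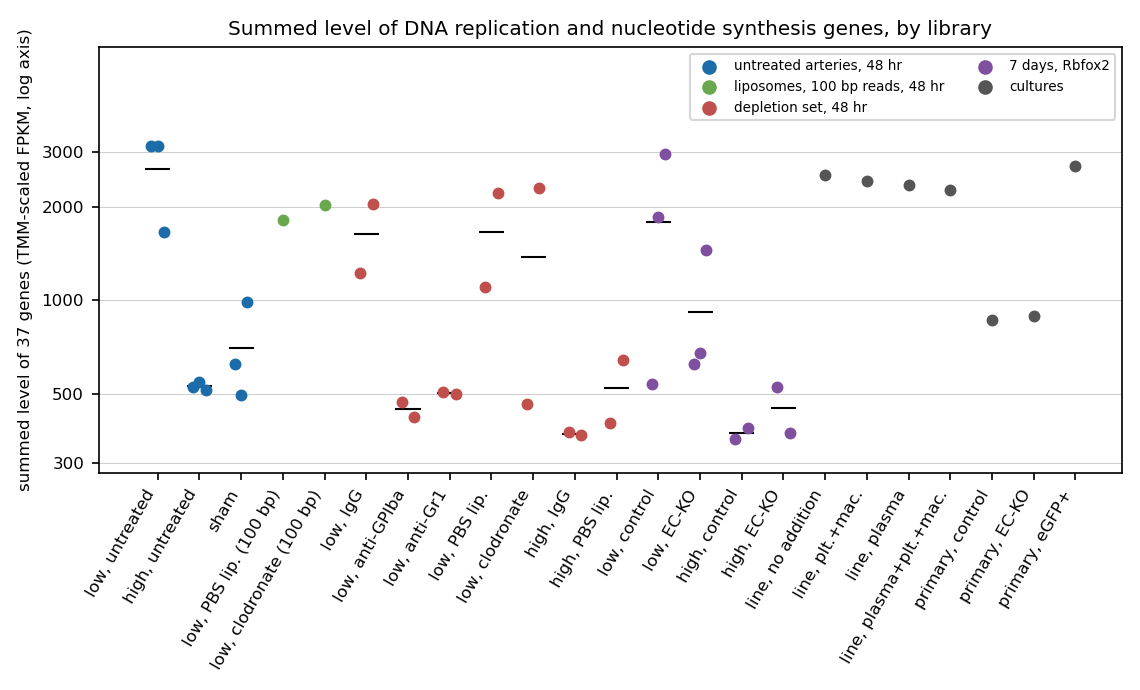
Summed level of the 37 replication genes in each artery and culture library, in TMM-scaled FPKM on the vertical axis, with each point 1 library and groups along the horizontal axis, for sets that differ in read length. The low-flow untreated pools reach 1658 to 3127, the high-flow pools 516 to 546, and the clodronate pair splits into 465 and 2296.

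Origin licensing genes were 9 of 9 higher, with log2 fold changes from 1.35 to 4.72. Orc6, the smallest subunit of the origin recognition complex, was at a level of 133, 110.0 and 65.8 in low flow, 42.7, 39 and 41.1 in high flow and 50.9, 37 and 53.7 in sham pools. Cdc6, which recruits the helicase ring to the origin complex, was at 26.9, 31.2 and 14 in low flow, 7.2, 6.23 and 5.75 in high flow and 7.26, 6.68 and 9.73 in sham pools. Cdt1, its partner in loading, was at 10.7, 16.6 and 8.35 in low flow, 0.271, 0.434 and 0.576 in high flow and 1.09, 0.607 and 3.65 in sham pools. For all 3 loading factors the low-flow pools lay above every high-flow and sham pool, and Cdt1 changed by 4.72 ± 0.41 on the log2 scale from high flow (adjusted p = 9.45e-06), compared with 1.93 ± 0.27 for Cdc6 and 1.35 ± 0.24 for Orc6. Cdt1 had 2, 5 and 5 counts in the high-flow pools, close to the floor of 3 counts, which limits the precision of its fold change and of its rank. Mcm2, a helicase subunit, was at 39.3, 46.3 and 24.6 in low flow, 3.004, 3.91 and 2.27 in high flow and 5.59, 3.93 and 11.4 in sham pools. Mcm5, another subunit of the ring, was at 72.7, 124 and 42.3 in low flow, 3.3, 3.74 and 4.97 in high flow and 5.28, 4.55 and 15.6 in sham pools. Both sets of pools were separated without overlap, with log2 fold changes against high flow of 3.59 ± 0.28 for Mcm2 and 4.34 ± 0.395 for Mcm5. The remaining subunits of the ring moved with them, at log2 fold changes of 2.94 for Mcm3, 2.86 for Mcm4, 2.24 for Mcm6 and 3.5 for Mcm7.

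Of the 5 genes that convert the ring into a moving helicase, 4 were higher and Gins4 was not called. Mcm10, needed to fire licensed origins, was at 9.24, 10.5 and 7.28 in low flow, 0.496, 0.583 and 0.211 in high flow and 0.59, 0.594 and 2.04 in sham pools. Gins1, a GINS subunit, was at 28.2, 28.6 and 16.3 in low flow, 1.47, 3.02 and 2.26 in high flow and 2.63, 3.43 and 8.62 in sham pools. Neither gene overlapped between low flow and the other groups, and their log2 fold changes against high flow were 4.34 ± 0.34 and 3.37 ± 0.35. In the high-flow pools Mcm10 had 6, 11 and 3 counts and Gins1 5, 16 and 9, which limits the precision of these changes. The 4 GINS genes encode the subunits of a single tetramer, and their values ranged widely. Gins2 changed by 4.43 ± 0.29 and Gins3 by 2.4 ± 0.26 on the log2 scale. Gins4 was already at 35.6, 26.6 and 20.9 in high flow against 38.8, 30.3 and 33.5 in low flow, levels that overlapped, with a log2 fold change of 0.35 ± 0.21 (adjusted p = 0.201).

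Of the clamp and its loader, 5 of 6 genes were higher. Pcna, the sliding clamp that holds polymerases on DNA, had the highest mean level of the 37 genes in low-flow, high-flow and sham pools alike, at 525, 495 and 227 in low flow, 90.1, 86.9 and 81 in high flow and 95.6, 75.7 and 154 in sham pools. Its log2 fold change against high flow was 2.3 ± 0.31. Rfc3, a small subunit of the clamp loader, was at 84.7, 78.5 and 43.4 in low flow, 20.2, 18.2 and 17.2 in high flow and 17.8, 19 and 31.1 in sham pools. Rfc1, the large subunit, was at 24.9, 19.8 and 17.7 in low flow, 15.4, 16.7 and 17.3 in high flow and 16.9, 17.2 and 17.9 in sham pools. Rfc3 in low flow thus lay above both control groups, with a change of 1.91 ± 0.25 on the log2 scale from high flow, whereas the level of Rfc1 in low-flow pool c was within the range of the sham pools and its change of 0.36 ± 0.18 did not pass the test (adjusted p = 0.114). The other small subunits changed by 1.67 (Rfc2), 2.75 (Rfc4) and 2.34 (Rfc5) on the log2 scale, all called. RFC2 to RFC5 also serve in alternative loaders that carry other large subunits.

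The 7 polymerase and primase genes were all higher in low flow, but with smaller log2 fold changes, from 1.09 to 2.84 (median 1.5). Pola1, the catalytic subunit of polymerase alpha, was at a low level of 5.3, 2.93 and 3.4 in low flow, 1.38, 1.78 and 1.36 in high flow and 1.95, 1.39 and 2.01 in sham pools. Prim1, the catalytic subunit of primase, was at 71.1, 74.5 and 44 in low flow, 23.1, 23 and 20.6 in high flow and 28.3, 17.9 and 38.3 in sham pools. These 2 primer-making enzymes changed by 1.38 ± 0.27 and 1.52 ± 0.21 on the log2 scale against high flow. Pold1, the catalytic subunit of polymerase delta, was at 5.33, 13.9 and 5.21 in low flow, 4.39, 3.52 and 3.45 in high flow and 3.09, 3.11 and 2.73 in sham pools. Pole, that of polymerase epsilon, had the lowest mean level of the 37 genes in each of these groups, at 2.36, 2.11 and 1.46 in low flow, 0.198, 0.331 and 0.27 in high flow and 0.531, 0.249 and 0.52 in sham pools. Pold1 was highest in low-flow pool b and changed by 1.09 ± 0.37 (adjusted p = 0.033), while Pole was several times higher in all 3 low-flow pools and changed by 2.84 ± 0.34. Pole had only 5, 13 and 8 counts in the high-flow pools. Pole2, the second polymerase epsilon subunit, changed by 1.5, Prim2 by 1.52 and Pola2 by 1.18 on the log2 scale.

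The 2 genes of the single-strand binding complex RPA included here gave unlike values. Rpa1, the large subunit, was at 144, 129.9 and 85.2 in low flow, 71.7, 80.5 and 96.8 in high flow and 60.2, 66.5 and 67.3 in sham pools. Rpa2, the middle subunit, was at 96.8, 101 and 57.4 in low flow, 19.3, 14.7 and 15.8 in high flow and 18.6, 19.6 and 30.8 in sham pools. Rpa1 was the second most abundant of the 37 genes in high flow and its groups overlapped, with a log2 fold change of 0.55 ± 0.25 (adjusted p = 0.094), while Rpa2 rose by 2.38 ± 0.24. RPA also coats single-stranded DNA during repair in cells that do not divide. Fen1, the flap endonuclease of lagging-strand maturation, was at 143, 158 and 79.7 in low flow, 12.2, 11.9 and 11.6 in high flow and 16.5, 12.1 and 30.4 in sham pools. Lig1, which seals the processed fragments, was at 35, 40.5 and 23.7 in low flow, 4.58, 3 and 3.91 in high flow and 5.51, 4.79 and 12 in sham pools. Low flow was above all control pools for both, with log2 fold changes against high flow of 3.44 ± 0.27 and 3.14 ± 0.25.

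Genes of nucleotide supply held the highest changes. Rrm1, the large subunit of ribonucleotide reductase, was at 155, 98.4 and 74.1 in low flow, 14.6, 21 and 17.6 in high flow and 23, 18.7 and 36 in sham pools. Rrm2, its small subunit and the one made mainly in S phase, was at 258, 260.4 and 93.1 in low flow, 2.99, 8.55 and 4.75 in high flow and 12.5, 9.04 and 42.6 in sham pools. Tk1, the thymidine kinase of the salvage pathway, was at 178, 140.3 and 87.3 in low flow, 1.13, 7.83 and 2.5 in high flow and 16.3, 1.42 and 47.1 in sham pools. Rrm2 and Tk1 had the highest log2 fold changes of the 37 against high flow, 5.21 ± 0.49 (adjusted p = 1.54e-05) and 5.05 ± 0.497 (adjusted p = 2.08e-05), against 2.64 ± 0.29 for Rrm1. Tyms, which makes thymidylate, was at 89.8, 66.1 and 38.7 in low flow, 5.53, 8.36 and 6.2 in high flow and 11, 6.19 and 20.1 in sham pools. Dut, the dUTPase that keeps uracil out of DNA, was at 47.2, 53.2 and 22.5 in low flow, 4.42, 4.75 and 1.99 in high flow and 6.96, 3.73 and 14.7 in sham pools. Ung, the glycosylase that removes uracil from DNA, was at 9.34, 14.4 and 4.69 in low flow, 1.26, 1.41 and 0.536 in high flow and 0.981, 0.846 and 2.91 in sham pools. All 3 genes were higher in every low-flow pool than in any control pool, and changed by 3.28 ± 0.31, 3.46 ± 0.37 and 3.07 ± 0.48 on the log2 scale against high flow. In the high-flow pools Tk1 had 5, 54 and 13 counts and Ung 8, 14 and 4, which limits the precision of their fold changes.

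**Figure D2:**
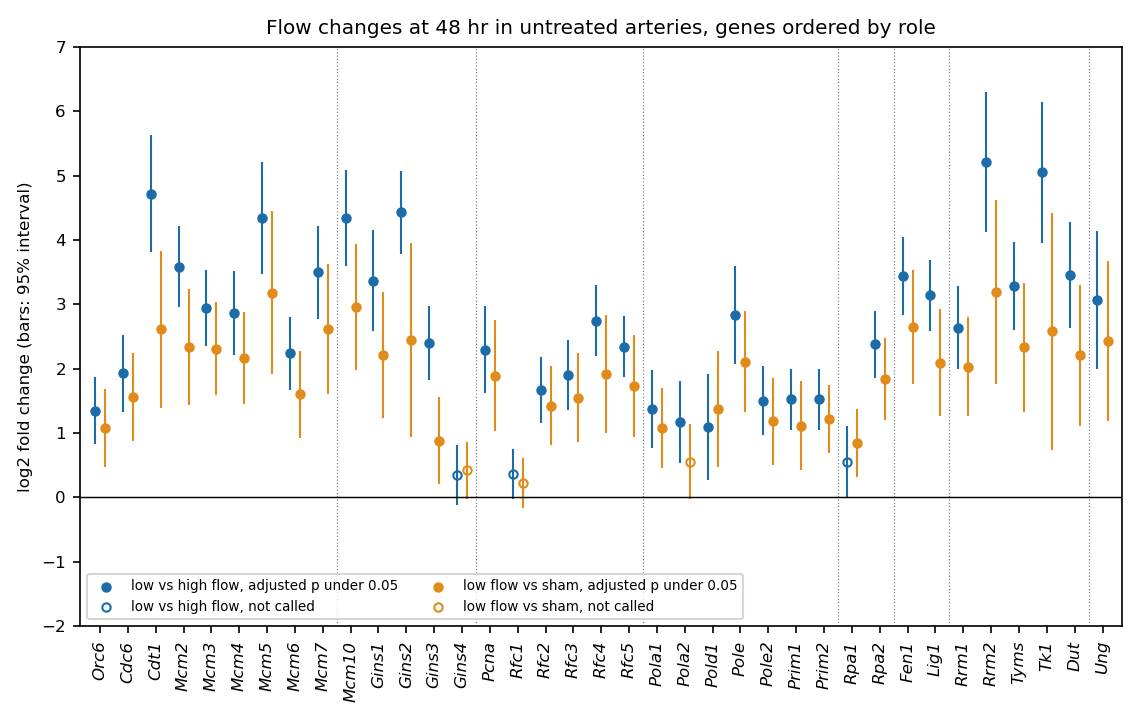
Log2 fold change with its 95% interval for each of the 37 genes, ordered by role, in low against high flow and low flow against sham at 48 hr in the untreated set. Rrm2, Tk1 and Cdt1 reach 5.21, 5.05 and 4.72 against high flow, and the intervals of Gins4 and Rfc1 lie close to 0 in both comparisons.

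Against the sham operation, 34 of the 37 genes were again higher in low flow, where 20.6% of the 11164 genes tested were higher. The median log2 fold change was 1.91. These comparisons share the low-flow pools. The highest changes were those of Rrm2 (3.2 ± 0.63), Mcm5 (3.18 ± 0.56) and Mcm10 (2.96 ± 0.43), with adjusted p of 0.0063, 0.00396 and 0.00201. Rfc1, Gins4 and Pola2 did not pass the test, at log2 fold changes of 0.22 ± 0.17, 0.42 ± 0.19 and 0.55 ± 0.26. Rpa1 passed here (0.85 ± 0.23, adjusted p = 0.0201), with lower levels in sham than in high-flow pools. With low-flow pools a and b left out, 33 genes were called against high flow but 0 against sham (edgeR), where 14.2% and 0% of all genes were higher. Scaling by library totals alone gave 26 and 19, where 9.29% and 5.75% were. With that scaling the fold changes turned negative for Gins4, Rfc1 and Rpa1 against high flow and for Gins4, Rfc1 and Pola2 against sham, none of which had been called in that comparison. Between high-flow and sham pools, edgeR called 0 of the 33 genes with enough counts, and 0 of all 11030 genes tested (0%). The median of the 33 was -0.61, 18 of them had an unadjusted p under 0.05, all on the side of lower levels in high flow, against 7.87% of all genes in either direction, and DESeq2 called 0. There the 3 highest log2 fold changes were those of Rpa1 (0.31), Pold1 (0.29) and Gins4 (0.09) and the 3 lowest those of Tk1 (-2.49), Rrm2 (-2.02) and Gins2 (-1.99). Sham pool c carried higher levels of most of the 37 genes than the other two sham pools, with a median ratio of 1.58 to pool a and 1.93 to pool b, and its macrophage markers also summed to 640.3 against 199 and 182 in those pools.

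Genes next to the 37 in the cycle moved too. Of 38 other replication and nucleotide genes tested, 31 were higher and 1 lower in low against high flow, with a median log2 fold change of 1.5. Dctd, the dCMP deaminase, changed by 4.93 and Asf1b, a histone chaperone, by 4.74, whereas Rrm2b, the reductase subunit used outside S phase, fell by 1.51 on the log2 scale (adjusted p = 0.0002). Orc5 was at -0.35 and was not called. Of 13 genes of the E2F and RB families, 8 were higher and 3 lower, from E2f8 (3.95) and E2f1 (3.29) at the top to E2f5 (-1.14) and Tfdp2 (-1.03) at the bottom. All 12 mitotic genes were higher, with a median of 5.05, led by Plk1 (5.94) and Bub1 (5.64), with Ccna2 (2.98) and Kif11 (4.28) the lowest. Against sham, 29 of 39 other replication genes were higher and 1 lower, 6 of 12 E2F and RB genes were higher and 2 lower, and all 12 mitotic genes were higher with a median of 2.37. Among the 30 replication genes with a promoter window, the 12 with E2F letters had a median log2 fold change of 2.32 in low against high flow and were all higher, and the 18 without them had a median of 2.69, of which 16 were higher.

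Markers of some other cell types rose in the same pools, and those of others fell. Of 11 macrophage markers, 10 were higher in low than in high flow, and their summed level was 5476, 8126 and 2414 in low flow and between 68.1 and 143 in high flow, with no marker at 0 in all pools of a group. Of the 7 neutrophil markers tested, all were higher, with sums of 737 to 3376 in low flow and 19.9 to 32.9 in high flow. Of the 5 smooth muscle markers tested, 3 were higher, and the 6 in the table summed to between 2952 and 4037 in low flow against 339 to 410.0 in high flow. The endothelial markers were split, with 2 higher and 3 lower of 11. Fat cell markers were lower in 4 of 4 tested, with a median log2 fold change of -7.9, erythroid markers in 2 of 3, fibroblast markers in 1 of 5 and platelet markers in 1 of 5, with none of these lists having a higher member, and no lymphocyte marker had enough counts. Against sham, 10 of 11 macrophage, 7 of 7 neutrophil, 3 of 3 pan leukocyte and 2 of 5 smooth muscle markers were higher, 2 of 5 platelet and 1 of 4 fibroblast markers were lower, and of 11 endothelial markers 2 were higher and 3 lower. In such bulk RNA, more cells of a type and more RNA per cell cannot be told apart, nor can the cell type in which the replication genes were expressed be read from these pools. The part of these cells in the rise of the replication genes was not tested.

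The depletion set repeated the comparison of low with high flow in mice that carried a control treatment. Under IgG, 30 of the 37 genes were higher in low flow, where 22.8% of the 13401 genes tested were higher, with a median log2 fold change of 2.70 for the 37. Under PBS liposomes 17 were higher, where 19.6% of all genes were, with a median of 1.98. The difference between these flow changes was itself tested, and edgeR called 0 of the 37 genes and 0 of all 13401 (0%). An unadjusted p under 0.05 was reached by 0 of the 37, against 5.98% of all genes. The median of that difference was 0.64, and leaving aside Ung, which had no counts in high flow under PBS liposomes, the 3 highest log2 fold changes were those of Pole (2.08), Rrm2 (2.05) and Tk1 (2.01) and the 3 lowest those of Rfc1 (-0.33), Orc6 (-0.08) and Pold1 (-0.06). DESeq2 called 32 and 25 genes in the 2 flow comparisons, where 15.6% and 13.6% of the 21674 genes in the table, over which its shares are given throughout, were higher. The pairs of libraries were uneven. The second low-flow library exceeded the first in 36 of 37 genes under IgG and in 37 of 37 under PBS liposomes, by a median ratio of 1.64 and 1.91. Under PBS liposomes the second high-flow library was also above the first in 34 genes. Without the second low-flow IgG library the count of 30 fell to 4, and without the first or second high-flow IgG library to 9 or 11, in fits where 10.1%, 13.8% and 16.5% of all genes were higher. The PBS count of 17 became 0 without the first high-flow or the second low-flow PBS library (6.06% and 10.2% of all genes), 8 without the second high-flow library (14.5%), 10 or 11 without an anti-GPIba or low-flow IgG library, which only lend their spread to the fit, and 27 without a clodronate library. For the fits without an anti-GPIba, low-flow IgG or clodronate library no share of all genes is given for PBS liposomes. Those counts cannot be set against the rest of the genes. Under IgG the 3 highest log2 fold changes were those of Mcm10 (5.000), Tk1 (4.78) and Gins1 (4.59) and the 3 lowest those of Rpa1 (-0.16), Rfc1 (-0.04) and Pold1 (0.15), and the 7 genes not called were Rpa1, Rfc1, Pold1, Gins4, Prim2, Pola1 and Ung. Mcm10 and Gins1 had 0 counts in the first high-flow IgG library. Under PBS liposomes, leaving aside Ung again, the 3 highest log2 fold changes were those of Gins2 (3.82), Gins1 (3.09) and Mcm10 (3.07) and the 3 lowest those of Rpa1 (-0.64), Pold1 (0.21) and Rfc1 (0.29). Markers of other cells moved with flow in these libraries too. Under IgG 10 of 11 macrophage, 7 of 7 neutrophil and 2 of 6 smooth muscle markers were higher, 2 of 5 fibroblast markers were lower, and of 11 endothelial markers 2 were higher and 5 lower. Endothelial markers summed to 2391 and 2179.8 in low flow and 5522 and 5572 in high flow with IgG, and macrophage markers to 2166 and 2018 and 58 and 238. Under PBS liposomes 9 of 11 macrophage, 6 of 7 neutrophil and 2 of 6 smooth muscle markers were higher, 1 of 5 fibroblast markers was lower, and 2 endothelial markers were higher and 4 lower. Their part in the changes of the replication genes was not tested.

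The IgG libraries serve as the baseline for the antibody groups, and their values are given with them. In the low-flow carotids of mice given anti-GPIba, which depletes platelets, 11 of the 37 genes were lower than under IgG and none higher, where 10.5% of the 13401 genes tested were lower. The count was 0 without any one of the anti-GPIba or low-flow IgG libraries, in fits where 0.108% and 0% of all genes (anti-GPIba libraries) and 0.431% and 0.631% (IgG libraries) were lower. The median log2 fold change of the 37 was -1.98. The 11 were Tk1, Rrm2, Pole, Mcm5, Tyms, Rfc4, Mcm2, Pcna, Rfc3, Mcm6 and Rfc2, and 30 of the 37 had an unadjusted p under 0.05, against 36.6% of all genes. With anti-GPIba the 3 highest log2 fold changes were those of Rfc1 (-0.16), Gins4 (-0.35) and Rpa1 (-0.57) and the 3 lowest those of Tk1 (-6.2), Rrm2 (-5.73) and Mcm10 (-5.11). In the low-flow carotids of mice given anti-Gr1, which depletes neutrophils, edgeR called 0 of the 37 genes and 0 of all genes tested (0%), with a median of -1.87. There, 30 of the 37 had an unadjusted p under 0.05, against 18.1% of all genes, with DESeq2 calling 3, where 0.332% of all genes were lower. With anti-Gr1 the 3 highest log2 fold changes were those of Rfc1 (-0.28), Gins4 (-0.54) and Rpa1 (-0.58) and the 3 lowest those of Tk1 (-3.57), Rrm2 (-3.55) and Gins1 (-3.13). In 35 of the 37 both anti-Gr1 libraries lay below both IgG libraries, which was true of 26.5% of all genes. Anti-GPIba and anti-Gr1 were compared with each other directly, and edgeR called 0 of the 37 and 0 of all genes (0%), with a median of -0.15. An unadjusted p under 0.05 was reached by 0 of the 37, against 10.5% of all genes, and DESeq2 called 0. Between them the 3 highest log2 fold changes were those of Pold1 (0.47), Cdc6 (0.36) and Gins1 (0.32) and the 3 lowest those of Tk1 (-2.63), Mcm10 (-2.18) and Rrm2 (-2.17).

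Orc6 was at a level of 31.6 and 50.2 in low flow with IgG, 14.2 and 15.2 with anti-GPIba, 18.6 and 14.1 with anti-Gr1 and 18 and 12.4 in high flow with IgG. Cdc6 was at 9.13 and 17.7 in IgG low flow, 4.21 and 3.94 with anti-GPIba, 3.73 and 2.59 with anti-Gr1 and 1.64 and 2.66 in IgG high flow. Cdt1 was at 16.2 and 26.6 in IgG low flow, 3.73 and 1.3 with anti-GPIba, 2.25 and 4.35 with anti-Gr1 and 1.79 and 0.846 in IgG high flow. For these loading factors the low-flow IgG libraries stood above the rest, and every antibody library was closer to the high-flow pair than to the low-flow IgG pair. Mcm2 was at 37.7 and 59 in IgG low flow, 9.18 and 4.26 with anti-GPIba, 9.95 and 15.9 with anti-Gr1 and 9.04 and 7.17 in IgG high flow. Mcm5 was at 40.2 and 70.5 in IgG low flow, 7.61 and 3.5 with anti-GPIba, 9.2 and 14.1 with anti-Gr1 and 5.57 and 3.88 in IgG high flow. Both were lower with anti-GPIba, Mcm5 with a log2 fold change of -3.38 ± 0.92 (adjusted p = 0.0357) and Mcm2 with -2.91 ± 0.79 (adjusted p = 0.035), while with anti-Gr1 the same changes were -2.29 ± 0.88 and -1.95 ± 0.76, neither of them called. Mcm10 was at 4.36 and 7.76 in IgG low flow, 0.333 and 0.0313 with anti-GPIba, 0.972 and 0.679 with anti-Gr1 and 0 and 0.382 in IgG high flow. Gins1 was at 11.5 and 21 in IgG low flow, 2.99 and 1.83 with anti-GPIba, 1.67 and 2.15 with anti-Gr1 and 0 and 1.36 in IgG high flow. Outside low flow with IgG, Mcm10 was under 1 and Gins1 under 3 in each of these libraries, and Mcm10 had the third lowest log2 fold change with anti-GPIba, -5.11 ± 1.75 (adjusted p = 0.0628), without passing the test.

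Pcna was at a level of 165 and 236 in low flow with IgG, 54.8 and 47.3 with anti-GPIba, 51.3 and 55.8 with anti-Gr1 and 29.9 and 33.3 in high flow with IgG. Rfc3 was at 25.4 and 41.4 in IgG low flow, 9.81 and 8.45 with anti-GPIba, 9.93 and 9.01 with anti-Gr1 and 3.04 and 4.43 in IgG high flow. Rfc1 was at 12.3 and 13.3 in IgG low flow, 11.5 and 12.5 with anti-GPIba, 12.1 and 9.87 with anti-Gr1 and 14.7 and 12.8 in IgG high flow. The clamp and the small loader subunit fell with anti-GPIba, with log2 fold changes of -2.04 ± 0.57 and -1.94 ± 0.58, and Rfc1 stayed between 9.87 and 14.7 in all these libraries. Pola1 was at 4.9 and 7.02 in IgG low flow, 2.98 and 2.07 with anti-GPIba, 2.22 and 2.78 with anti-Gr1 and 0.862 and 3.29 in IgG high flow. Prim1 was at 28.2 and 42.8 in IgG low flow, 12.6 and 10.6 with anti-GPIba, 11.2 and 8.67 with anti-Gr1 and 7.39 and 8.19 in IgG high flow. Neither primer-making gene passed the test with either antibody, at -1.31 ± 0.69 and -1.68 ± 0.596 on the log2 scale with anti-GPIba. Pold1 was at 13.8 and 19.1 in IgG low flow, 14.1 and 8.76 with anti-GPIba, 7.44 and 8.92 with anti-Gr1 and 21.6 and 9.35 in IgG high flow. Pole was at 2.21 and 2.5 in IgG low flow, 0.236 and 0.195 with anti-GPIba, 0.381 and 0.616 with anti-Gr1 and 0.0233 and 0.248 in IgG high flow. Pold1 was as high in a high-flow IgG library as in any low-flow one, whereas Pole fell with anti-GPIba, with a log2 fold change of -3.51 ± 1.1 (adjusted p = 0.0498).

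Rpa1 was at a level of 36.5 and 66.6 in low flow with IgG, 36 and 36.7 with anti-GPIba, 40.1 and 31.9 with anti-Gr1 and 53.6 and 66.2 in high flow with IgG. Rpa2 was at 43.7 and 69.8 in IgG low flow, 15.7 and 18.8 with anti-GPIba, 20.2 and 13.2 with anti-Gr1 and 14.1 and 8.51 in IgG high flow. Here too the large RPA subunit was at least as high in high flow as in most low-flow libraries, and Rpa2 was not. Fen1 was at 40.4 and 82.9 in IgG low flow, 13.4 and 10.01 with anti-GPIba, 16.7 and 12.7 with anti-Gr1 and 9.01 and 4.95 in IgG high flow. Lig1 was at 15.2 and 25.6 in IgG low flow, 3.25 and 3.61 with anti-GPIba, 3.17 and 3.34 with anti-Gr1 and 2.89 and 4.73 in IgG high flow. Both maturation enzymes were low in every antibody library and neither passed the test, with adjusted p of 0.0535 and 0.0526 for anti-GPIba. Rrm1 was at 47 and 88.3 in IgG low flow, 22.2 and 12.9 with anti-GPIba, 20.8 and 19.7 with anti-Gr1 and 17.2 and 19.4 in IgG high flow. Rrm2 was at 32.2 and 84.6 in IgG low flow, 1.43 and 0.874 with anti-GPIba, 6.51 and 3.9 with anti-Gr1 and 3.45 and 1.74 in IgG high flow. Tk1 was at 43.3 and 88 in IgG low flow, 1.65 and 0.214 with anti-GPIba, 7.4 and 4.16 with anti-Gr1 and 3.99 and 1.05 in IgG high flow. Tk1 and Rrm2 had the lowest log2 fold changes of the 37 with both antibodies, -6.2 ± 1.66 and -5.73 ± 1.74 with anti-GPIba (adjusted p = 0.0345 and 0.0457) and -3.57 ± 1.43 and -3.55 ± 1.54 with anti-Gr1 (adjusted p = 0.251 and 0.266). Tyms was at 14.6 and 28.6 in IgG low flow, 2.96 and 2.38 with anti-GPIba, 3.85 and 4.36 with anti-Gr1 and 2.37 and 1.96 in IgG high flow. Dut was at 20.8 and 40.3 in IgG low flow, 7.82 and 6.97 with anti-GPIba, 10.3 and 7.47 with anti-Gr1 and 6.05 and 2.62 in IgG high flow. Tyms fell with anti-GPIba, with a log2 fold change of -3.08 ± 0.81, and Dut was at -2.11 ± 0.69 without passing the test. Ung was low throughout this set, at 0.502 and 0.496 in IgG low flow, 0.12 and 0.119 with anti-GPIba, 0 and 0.314 with anti-Gr1 and 0.0925 and 0 in IgG high flow.

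**Figure D3:**
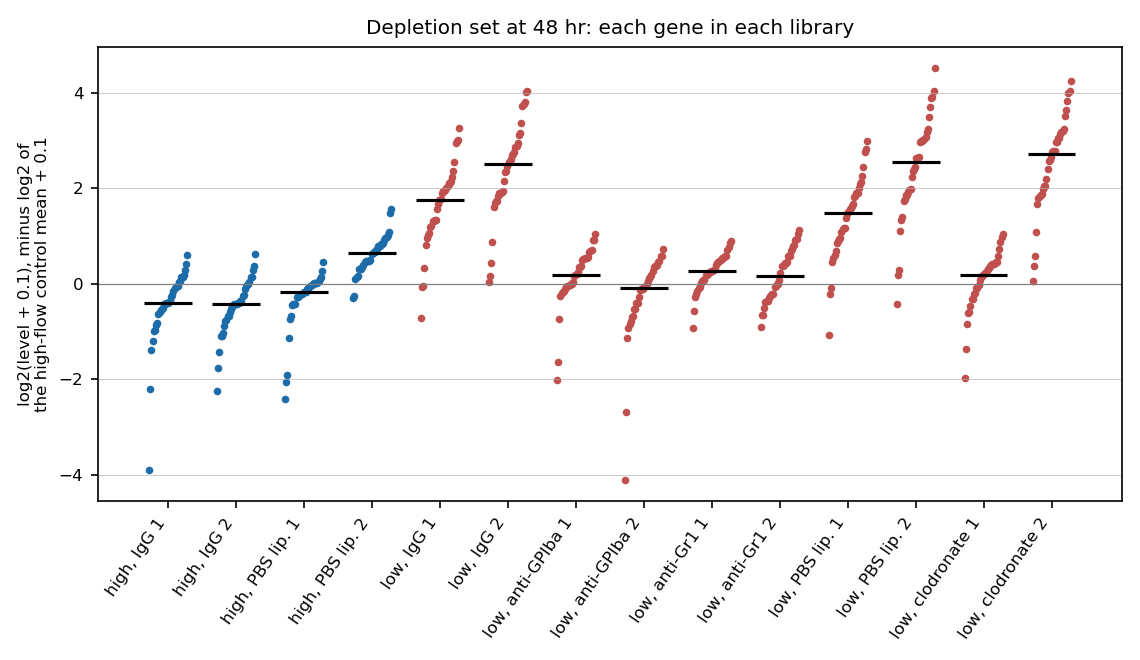
Each of 34 replication genes in each library of the depletion set at 48 hr, as log2 of the level plus 0.1 minus the same for the mean of the high-flow libraries, with a bar at the median of the genes. The anti-GPIba, anti-Gr1 and first clodronate libraries lie low, and the low-flow IgG, low-flow PBS and second clodronate libraries lie high.

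The count for anti-GPIba leaned on few libraries. Among the libraries outside the comparison, leaving out either clodronate library gave 30 (15% and 14.7% of all genes), and leaving out an anti-Gr1, high-flow IgG or low-flow PBS library gave 5 or 6. The fits that gave 5 or 6 have no share of all genes beside them and cannot be set against the rest of the genes. DESeq2 called 30 genes, where 10.3% of all were lower, and the fit on the 2 groups alone called 31, where 20.2% were. When the low-flow antibody libraries were set against the high-flow IgG libraries, edgeR called 0 of the 37 genes for anti-GPIba, where 7.7% of all genes were called in either direction, and 0 for anti-Gr1, where 13.1% were. The medians were 0.37 and 0.77. Leaving aside Ung, which had 2 and 0 counts in the high-flow IgG libraries, the 3 highest log2 fold changes were those of Gins1 (1.78), Pole2 (1.47) and Rfc3 (1.28) and the 3 lowest those of Tk1 (-1.43), Rrm2 (-1.17) and Rpa1 (-0.73) for anti-GPIba. For anti-Gr1 the 3 highest log2 fold changes were those of Mcm10 (2.07), Pole (1.86) and Pole2 (1.71) and the 3 lowest those of Pold1 (-0.91), Rpa1 (-0.73) and Rfc1 (-0.33). An unadjusted p under 0.05 was reached by 0 and 2 of the 37, against 27.0% and 31.4% of all genes, and DESeq2 called 0 in both comparisons. Macrophage markers were lower with anti-GPIba as well. Their summed level was 2166 and 2018 in low flow with IgG, 156 and 253 with anti-GPIba and 918 and 1118 with anti-Gr1, with 8 of 11 lower with anti-GPIba and 0 of 11 called with anti-Gr1. Neutrophil markers summed to 475 and 154 with IgG, 5.4 and 15.2 with anti-GPIba and 27 and 45.5 with anti-Gr1, with 7 of 7 lower with anti-GPIba and 0 of 7 called with anti-Gr1. Platelet markers summed to 43.2 and 39.1 with IgG, 15.2 and 29.9 with anti-GPIba and 41.3 and 63.3 with anti-Gr1, with 1 of 6 lower and 1 higher with anti-GPIba and 1 at 0 in both of its libraries. Smooth muscle markers summed to 2433 and 2638 with IgG, 395 and 563 with anti-GPIba and 1049 and 3656 with anti-Gr1, with 2 of 6 lower with anti-GPIba. Endothelial markers summed to 2391 and 2179.8 with IgG, 3909.5 and 4055 with anti-GPIba and 3236 and 2955 with anti-Gr1, with 2 of 11 higher with anti-GPIba and a median log2 fold change of 0.62. Fibroblast markers summed to 105 and 83.3 with IgG, 224 and 459 with anti-GPIba and 388 and 205 with anti-Gr1, with 1 of 5 higher with anti-GPIba. The part of any of these cells in the lower replication genes was not tested. Of 40 other replication genes, 16 were lower with anti-GPIba and Rrm2b was higher (1.13 on the log2 scale), and of 12 mitotic genes 5 were lower, with a median of -6.21.

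Clodronate liposomes, which deplete phagocytes, gave a pair of libraries that differed from each other. The 37 genes summed to 465 in the first and 2296 in the second, against 1106 and 2209 with PBS liposomes in low flow and 405 and 643 in high flow. All 37 genes were higher in the second clodronate library than in the first, by a median of 5.07-fold. Against PBS liposomes in low flow, edgeR called 0 of the 37 genes lower or higher, where 0.119% of all genes were lower. The median log2 fold change was -0.23. DESeq2 also called 0, and no unadjusted p of the 37 was under 0.05 (0 genes), against 14.9% of all genes. In that comparison the 3 highest log2 fold changes were those of Rpa1 (0.34), Pola1 (0.099) and Pole (0.07) and the 3 lowest those of Gins2 (-0.62), Rrm2 (-0.56) and Pcna (-0.503). Without the second clodronate library 9 genes were lower, as were 3.33% of all genes. Against PBS liposomes in high flow, 0 of the 37 were called, where 7.41% of all genes were called in either direction. There the median was 1.79, 22 had an unadjusted p under 0.05, against 25.1% of all genes, DESeq2 called 9 higher, where 5.36% of all genes were, and 25 were called higher without the first clodronate library, where 8.65% were. Leaving Ung aside again, the 3 highest log2 fold changes were those of Gins2 (3.2), Mcm10 (3.09) and Gins1 (2.68) and the 3 lowest those of Rpa1 (-0.296), Pold1 (0.08) and Rfc1 (0.14). Macrophage markers were low in both clodronate libraries, at a sum of 214 and 224, against 1352 and 2282 with PBS liposomes in low flow and 89.9 and 177 in high flow. Neutrophil markers summed to 52.2 and 70.4 with clodronate, 192 and 572 with PBS liposomes in low flow and 5.74 and 5.6 in high flow, and pan leukocyte markers to 25.2 and 30.3, 101 and 222 and 12 and 23.1. Endothelial markers summed to 3848 and 2909 with clodronate, and fibroblast markers to 171 and 58. With clodronate 3 of 11 macrophage markers were lower than with PBS liposomes in low flow, and no member of the neutrophil, endothelial or fibroblast lists was called. The part of these cells in the levels of the replication genes was not tested.

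Values by gene followed that split. Orc6 was at a level of 18.1 and 59.1 with clodronate, 36.7 and 62.5 with PBS liposomes in low flow and 14.6 and 20.3 with PBS liposomes in high flow. Cdc6 was at 3.58 and 18.2 with clodronate, 5.89 and 17.1 in PBS low flow and 1.92 and 4.17 in PBS high flow. Cdt1 was at 2.63 and 28.7 with clodronate, 13.6 and 26.2 in PBS low flow and 0.825 and 4.22 in PBS high flow. In each case the first clodronate library was near the high-flow pair and the second was within or above the low-flow pair. Mcm2 was at 8.9 and 75.6 with clodronate, 34.2 and 59.7 in PBS low flow and 8.44 and 13.4 in PBS high flow. Mcm5 was at 9.02 and 85.6 with clodronate, 37.6 and 77.5 in PBS low flow and 4.03 and 13.5 in PBS high flow. Both helicase genes were higher in low than in high flow under PBS liposomes, by 2.18 ± 0.77 and 2.79 ± 0.898 on the log2 scale (adjusted p = 0.0459 and 0.0325). Mcm10 was at 0.233 and 9.9 with clodronate, 1.94 and 7.84 in PBS low flow and 0.126 and 1.09 in PBS high flow. Gins1 was at 1.86 and 24.7 with clodronate, 11.8 and 22.6 in PBS low flow and 1.42 and 2.79 in PBS high flow. Among their partners, Gins2 had the highest called change with flow under PBS liposomes that did not rest on a group at 0, 3.82 ± 1.23 (adjusted p = 0.0322).

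Pcna was at a level of 71.1 and 294 with clodronate, 161 and 341 with PBS liposomes in low flow and 37.1 and 70.7 in high flow. Rfc3 was at 11.2 and 47.8 with clodronate, 29.1 and 49.3 in PBS low flow and 6.04 and 10.5 in PBS high flow. Rfc1 was at 9.3 and 16.7 with clodronate, 12.1 and 15.7 in PBS low flow and 13.4 and 10.4 in PBS high flow. Rfc1 again held a narrow range while the clamp and the small subunit did not. Pola1 was at 1.65 and 7.94 with clodronate, 3.22 and 5.47 in PBS low flow and 1.95 and 2.26 in PBS high flow. Prim1 was at 11.7 and 59.2 with clodronate, 30.9 and 52.5 in PBS low flow and 10.5 and 18.3 in PBS high flow. The primer-making genes changed with flow by 1.11 ± 0.696 and 1.6 ± 0.59 on the log2 scale under PBS liposomes (adjusted p = 0.232 and 0.0555). Pold1 was at 5.45 and 21.2 with clodronate, 12.2 and 16 in PBS low flow and 13.6 and 11.9 in PBS high flow. Pole was at 0.223 and 3.21 with clodronate, 0.888 and 2.29 in PBS low flow and 0.342 and 0.455 in PBS high flow. Pold1 overlapped between flows and Pole did not. Rpa1 was at 33.3 and 62.1 with clodronate, 28.3 and 44.5 in PBS low flow and 52.8 and 65.7 in PBS high flow. Rpa2 was at 17.6 and 86.7 with clodronate, 42.5 and 75.4 in PBS low flow and 13.8 and 18 in PBS high flow. Rpa1 had the lowest change of the 37 with flow under PBS liposomes, -0.64 ± 0.36 (adjusted p = 0.183).

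Fen1 was at a level of 11.4 and 84.3 with clodronate, 34.8 and 79.2 with PBS liposomes in low flow and 6.83 and 16.1 in high flow. Lig1 was at 2.52 and 24 with clodronate, 7.62 and 21 in PBS low flow and 2.4 and 5.44 in PBS high flow. The maturation genes did not overlap between flows under PBS liposomes, and both differed several times over between the 2 clodronate libraries. Rrm1 was at 15.1 and 84.1 with clodronate, 31.6 and 79.5 in PBS low flow and 19.1 and 36.6 in PBS high flow. Rrm2 was at 1.5 and 71.5 with clodronate, 11.8 and 92.6 in PBS low flow and 1.07 and 18.3 in PBS high flow. Tk1 was at 4.67 and 87.5 with clodronate, 16 and 88.9 in PBS low flow and 1.21 and 15.1 in PBS high flow. In these pairs Rrm1 and Rrm2 overlapped between flows under PBS liposomes, and Rrm2 showed the widest split between the clodronate libraries, a log2 ratio of 5.57 between the second and the first. Tyms was at 4.04 and 27.4 with clodronate, 10.4 and 29.7 in PBS low flow and 2.33 and 6.09 in PBS high flow. Dut was at 10.8 and 46.4 with clodronate, 19.4 and 52.2 in PBS low flow and 4.66 and 8.49 in PBS high flow. Ung was at 0.111 and 0.916 with clodronate, 0.478 and 0.697 in PBS low flow and 0 and 0 in PBS high flow. Ung had 0 counts in both high-flow PBS libraries and 14 and 22 counts in the low-flow pair. This makes it at least 9.67-fold higher in low flow if the high-flow pair is set at 3 counts in total. The same bound for clodronate in low flow against PBS liposomes in high flow is at least 8.54-fold.

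The liposome pair sequenced with the untreated set had 1 library a group and no test. Its summed levels were 1808 with PBS and 2020 with clodronate, while its macrophage markers summed to 1754 and 251. Of the 37 genes, 0 differed by more than 2-fold in either direction, where 4.18% of all genes were past 2-fold higher and 3.58% lower, and the median log2 ratio was 0.10. Ratios ran from -0.37 for Mcm6 (73.5 with clodronate, 95 with PBS) to 0.66 for Rfc4 (145 and 92). Rrm2 was at 78.8 with clodronate and 94.9 with PBS, Tk1 at 107 and 82.2, and Pcna at 332 and 274. Licensing and helicase genes were at, in that order, 120.3 and 91.2 for Orc6, 15.3 and 16.8 for Cdc6, 10.2 and 8.18 for Cdt1, 29 and 32.7 for Mcm2, 42.9 and 42.6 for Mcm5, 4.47 and 4.56 for Mcm10 and 28 and 27.5 for Gins1. Loader, primase and polymerase genes were at 24.1 and 23.4 for Rfc1, 50.8 and 41.8 for Rfc3, 5.41 and 4.16 for Pola1, 60.9 and 44.4 for Prim1, 7.22 and 6.66 for Pold1 and 2.96 and 2.73 for Pole. None of these genes differed by more than 2-fold. RPA and maturation genes were at 57.6 and 57.4 for Rpa1, 73.3 and 65.5 for Rpa2, 65.1 and 60.9 for Fen1 and 34.5 and 26.6 for Lig1. The other nucleotide genes were at 57.2 and 70.2 for Rrm1, 43.8 and 37.7 for Tyms and 41.3 and 39.4 for Dut and the glycosylase Ung at 8.39 and 8.42.

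**Figure D4:**
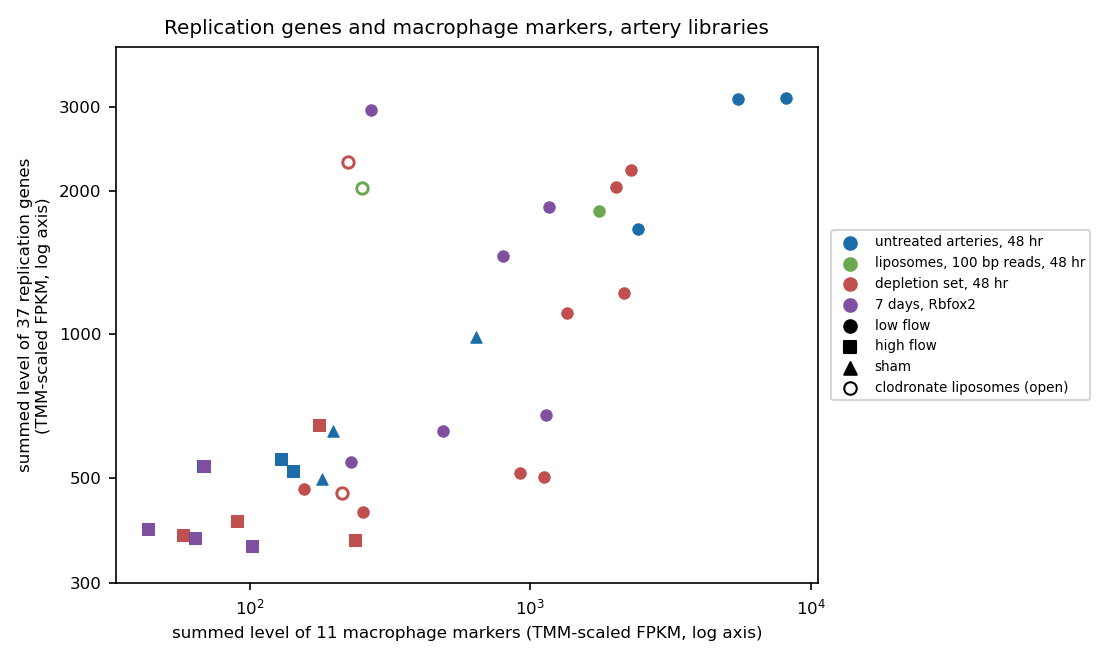
Summed level of the 37 replication genes against the summed level of 11 macrophage markers in each artery library, both in TMM-scaled FPKM on log axes, coloured by group, for sets that differ in read length. Clodronate libraries combine macrophage sums of 214 to 251 with replication sums of 465, 2020 and 2296.

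At 7 days the targeted gene was read first. Rbfox2 was at a level of 2.79, 4.82 and 2.42 in the low-flow control libraries 1, 4 and 5 and 0.946, 0.152 and 0.532 in the EC-KO libraries of those numbers, and at 3.43 and 3.78 in high-flow control against 0.709 and 0.993 in high-flow EC-KO. The 37 genes summed to 540.0, 1847 and 2955 in low-flow control libraries 1, 4 and 5, to 627, 677 and 1454 in low-flow EC-KO libraries, to 359 and 390.0 in high-flow control and to 529 and 374 in high-flow EC-KO. The libraries carry 3 sequencing runs in their names. The low-flow libraries numbered 1 came from 1 run, low-flow control library 5 and EC-KO library 4 from another, in which they were sequenced again, and the remaining low-flow and all high-flow libraries from the other, so flow and run are partly confounded. In low-flow control, libraries 4 and 5 were higher than library 1 by a median of 3.82-fold and 6.00-fold over the 37 genes. In control carotids, edgeR called 1 of the 37 genes higher in low flow, where 0.959% of the 13352 genes tested were higher. The median of the 37 was 2.67, and 35 had an unadjusted p under 0.05, against 24.96% of all genes. In control carotids the 3 highest log2 fold changes were those of Rrm2 (5.43), Mcm10 (5.27) and Gins1 (5.27) and the 3 lowest those of Gins4 (0.56), Rfc1 (0.82) and Rpa1 (1.02). In 33 of the 37 every low-flow control library exceeded both high-flow ones, which was true of 17.2% of all genes. Rrm2 was the gene called, at 5.43 ± 1.2 on the log2 scale (adjusted p = 0.0482). With the library number as a block the count in control carotids was 33, where 12% of all genes were higher. Without control library 1, or without both libraries numbered 1, it was 35, where 15.4% and 15.3% were. DESeq2 called 31, where 6.83% were, and leaving out any other library of the set gave 0.

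In EC-KO carotids edgeR called 0 of the 37 genes for flow, where 0.352% of all genes were higher. Their median was 1.1, DESeq2 called 0, and 3 had an unadjusted p under 0.05, against 15.7% of all genes. In EC-KO carotids the 3 highest log2 fold changes were those of Gins2 (2.39), Tk1 (2.19) and Pole (2.19) and the 3 lowest those of Pold1 (0.19), Gins4 (0.29) and Rfc1 (0.302). The block gave 7 genes (4.18% of all genes), leaving out both libraries numbered 1 gave 8 (3.83%) and leaving out control library 1 gave 1 (3.37%). The difference between the flow changes of the 2 genotypes was tested as an interaction, and edgeR called 0 of the 37 and 0 of all genes (0%). Its median was -1.34, 1 gene had an unadjusted p under 0.05, against 4.03% of all genes, which was Rrm2 (-4.69 ± 1.39, adjusted p = 0.986), and DESeq2 called 0. For the interaction the 3 highest log2 fold changes were those of Gins4 (-0.28), Orc6 (-0.43) and Rfc1 (-0.52) and the 3 lowest those of Rrm2 (-4.69), Mcm10 (-4.01) and Gins1 (-3.27). Between EC-KO and control in low flow, edgeR called 0 of the 37 and 0 of all genes (0%). The median was -0.97, 2 had an unadjusted p under 0.05, against 6.59% of all genes, with DESeq2 calling 0. In low flow the 3 highest log2 fold changes were those of Gins4 (-0.11), Orc6 (-0.44) and Rfc2 (-0.53) and the 3 lowest those of Mcm10 (-1.69), Cdc6 (-1.6) and Rrm2 (-1.53). In 0 of the 37 did the 2 genotypes separate in low flow with EC-KO lower, which was true of 4.03% of all genes, and without control library 1 the count of lower genes was 13, where 5.57% of all genes were lower. In high flow edgeR called 0 of the 37, where 0.00749% of all genes, a single gene, were called. The median there was 0.43, 1 had an unadjusted p under 0.05, against 2.19% of all genes, with DESeq2 calling 0. In high flow the 3 highest log2 fold changes were those of Rrm2 (3.17), Mcm10 (2.32) and Gins1 (1.85) and the 3 lowest those of Rpa2 (-0.22), Rpa1 (-0.09) and Gins2 (-0.06). Rrm2 changed there by 3.17 ± 1.12 (adjusted p = 1), with EC-KO libraries at 25.7 and 5.003 and control libraries at 2.13 and 1.29.

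Orc6 was at a level of 17, 30.9 and 35.8 in low-flow control libraries 1, 4 and 5, 14.5, 17 and 30.5 in low-flow EC-KO libraries 1, 4 and 5, 12.4 and 16.5 in high-flow control libraries 4 and 5 and 14.4 and 14.2 in high-flow EC-KO libraries 4 and 5. Cdc6 was at 3.81, 15.4 and 35 in control low flow, 3.66, 0.946 and 13.4 in EC-KO low flow, 3.25 and 2.61 in control high flow and 4.81 and 3.002 in EC-KO high flow. Cdt1 was at 3.58, 35 and 39.5 in control low flow, 5.48, 6.16 and 21.4 in EC-KO low flow, 1.28 and 3.37 in control high flow and 5.06 and 2.03 in EC-KO high flow. Control libraries 4 and 5 were the highest for all 3 genes, EC-KO library 5 came next, and Cdc6 in EC-KO library 4 was the lowest of the 10 libraries. Mcm2 was at 18.2, 75 and 105 in control low flow, 22.2, 23 and 62 in EC-KO low flow, 9.73 and 10.2 in control high flow and 18.8 and 8.13 in EC-KO high flow. Mcm5 was at 11.5, 91.8 and 112 in control low flow, 20.2, 25 and 51.9 in EC-KO low flow, 5.23 and 5.23 in control high flow and 14.4 and 5.49 in EC-KO high flow. For these helicase genes high-flow EC-KO library 4 lay above low-flow control library 1. Mcm10 was at 1.03, 13.2 and 15.8 in control low flow, 1.46, 1.33 and 6.57 in EC-KO low flow, 0 and 0.574 in control high flow and 2.27 and 0.439 in EC-KO high flow. Gins1 was at 2.57, 14.1 and 19.6 in control low flow, 1.79, 4.26 and 7.66 in EC-KO low flow, 0.609 and 0 in control high flow and 1.69 and 0.669 in EC-KO high flow. Both genes were at 0 in a high-flow control library, and in control carotids their flow changes were 5.27 ± 1.72 and 5.27 ± 1.41 on the log2 scale (adjusted p = 0.097 and 0.0666).

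Pcna was at a level of 51.5, 150.1 and 317 in low-flow control, 65, 87.8 and 181 in low-flow EC-KO, 38.6 and 37.1 in high-flow control and 47.1 and 39.2 in high-flow EC-KO. Rfc3 was at 10.2, 29.2 and 37 in control low flow, 12.5, 9.52 and 21.7 in EC-KO low flow, 7.01 and 5.14 in control high flow and 11.3 and 7.2 in EC-KO high flow. Rfc1 was at 11.4, 20.8 and 32.3 in control low flow, 12.7, 15 and 16.6 in EC-KO low flow, 13.1 and 12.6 in control high flow and 12.1 and 12.9 in EC-KO high flow. Rfc1 in low-flow control library 5 was at its highest level of the set, and in library 1 it was below high-flow control. Pola1 was at 3.54, 11.3 and 15.7 in control low flow, 4.04, 3.65 and 9.41 in EC-KO low flow, 3.1 and 1.87 in control high flow and 1.81 and 3.1 in EC-KO high flow. Prim1 was at 10.1, 31.4 and 52.5 in control low flow, 12.8, 9.81 and 25.5 in EC-KO low flow, 8.71 and 5.73 in control high flow and 11.7 and 11.3 in EC-KO high flow. Pold1 was at 11.4, 28.8 and 34.8 in control low flow, 18.9, 12.7 and 17.4 in EC-KO low flow, 13 and 11.2 in control high flow and 17.1 and 12.7 in EC-KO high flow. The 3 genes were highest in control libraries 4 and 5, and Pold1 did not separate EC-KO libraries by flow. Pole was at 0.989, 3.61 and 12.6 in control low flow, 0.99, 2.58 and 4.97 in EC-KO low flow, 0.109 and 0.388 in control high flow and 0.73 and 0.564 in EC-KO high flow. Rpa1 was at 40, 64.5 and 115 in control low flow, 44.6, 31.6 and 54.3 in EC-KO low flow, 34.8 and 41.2 in control high flow and 35.1 and 35.5 in EC-KO high flow. Rpa2 was at 18.8, 50.6 and 98.9 in control low flow, 17.4, 19 and 32.7 in EC-KO low flow, 14.7 and 15.3 in control high flow and 14.1 and 11.3 in EC-KO high flow. Pole and Rpa2 were higher in every low-flow control library than in high-flow control, and Rpa1 overlapped.

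Fen1 was at a level of 17.4, 65.4 and 117 in low-flow control, 22.8, 18.9 and 52.4 in low-flow EC-KO, 5.69 and 8.36 in high-flow control and 15.6 and 7.22 in high-flow EC-KO. Lig1 was at 5.71, 24.6 and 42.2 in control low flow, 6.2, 8.93 and 25.1 in EC-KO low flow, 3.89 and 2.54 in control high flow and 8.32 and 4.77 in EC-KO high flow. Maturation genes separated flows in control carotids, and in EC-KO carotids Fen1 did so and Lig1 did not. Rrm1 was at 23.3, 101 and 159 in control low flow, 26.1, 28.8 and 59.4 in EC-KO low flow, 18.6 and 20.4 in control high flow and 21.1 and 17.1 in EC-KO high flow. Rrm2 was at 14.4, 59.6 and 138 in control low flow, 13.9, 13.9 and 46.2 in EC-KO low flow, 2.13 and 1.29 in control high flow and 25.7 and 5.003 in EC-KO high flow. Tk1 was at 4.91, 49 and 99.4 in control low flow, 7.51, 11.7 and 41.4 in EC-KO low flow, 0.884 and 2.43 in control high flow and 6.52 and 2.66 in EC-KO high flow. Rrm2 was higher in high-flow EC-KO library 4 than in low-flow libraries 1 of either genotype and low-flow EC-KO library 4. Tk1 in high-flow EC-KO library 4 exceeded only low-flow control library 1 among the low-flow libraries. Tyms was at 4.35, 17.5 and 26.1 in control low flow, 5.33, 5.68 and 11.2 in EC-KO low flow, 2.37 and 2.3 in control high flow and 5.63 and 2.15 in EC-KO high flow. Dut was at 11.1, 20.9 and 34.4 in control low flow, 6.99, 8.48 and 17.2 in EC-KO low flow, 7.71 and 6.48 in control high flow and 11.6 and 6.03 in EC-KO high flow. Ung was at 0.0293, 0.243 and 0.874 in control low flow, 0.133, 0 and 0.595 in EC-KO low flow, 0.0361 and 0.0496 in control high flow and 0.0964 and 0.0596 in EC-KO high flow. Tyms and Dut were higher in every low-flow control library than in high-flow control, and Ung was under 1 in all 10 libraries. Macrophage markers summed to 231, 1165 and 270.1 in low-flow control libraries 1, 4 and 5, 488, 1137 and 800.0 in low-flow EC-KO, 102 and 43.5 in high-flow control and 68.9 and 63.7 in high-flow EC-KO. Control library 5, with the highest replication sum of the set, had a macrophage sum of 270.1. Endothelial markers summed to 3237, 1970.2 and 2099 in low-flow control, 2956, 2967 and 2599.7 in low-flow EC-KO, 4806 and 4973 in high-flow control and 4925 and 5009 in high-flow EC-KO, lowest in control libraries 4 and 5. Smooth muscle markers summed to 924, 653 and 636 in low-flow control, 764, 918 and 546 in low-flow EC-KO, 140.4 and 188 in high-flow control and 122 and 149.5 in high-flow EC-KO. Fibroblast markers summed to 364, 163 and 108 in low-flow control, 432, 1421 and 407 in low-flow EC-KO, 130.3 and 151 in high-flow control and 82.6 and 133 in high-flow EC-KO, with 0 of 5 called between genotypes in low flow (median log2 fold change 1.87) and 1 of 5 higher with flow in EC-KO. Neutrophil markers summed to 12.9, 252 and 14.9 in low-flow control, and to 16.7 or less in the other groups. Pan leukocyte markers summed to 116, 281 and 43.7 in low-flow control, 157, 188 and 175 in low-flow EC-KO, 16.9 and 3.55 in high-flow control and 186 and 23.1 in high-flow EC-KO. Lymphocyte markers summed to 37.6, 1.48 and 2.83 in low-flow control, 7.87, 2.97 and 2.18 in low-flow EC-KO, 5.01 and 1.66 in high-flow control and 92.9 and 12.6 in high-flow EC-KO. High-flow EC-KO library 4, whose replication sum was the highest of the high-flow libraries, also had the highest pan leukocyte and lymphocyte sums among them. The part of these cells in the levels of the replication genes was not tested. Of 40 other replication genes 2 were higher with flow in control carotids and of 12 mitotic genes 2, the mitotic genes with a median of 5.09.

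**Figure D5:**
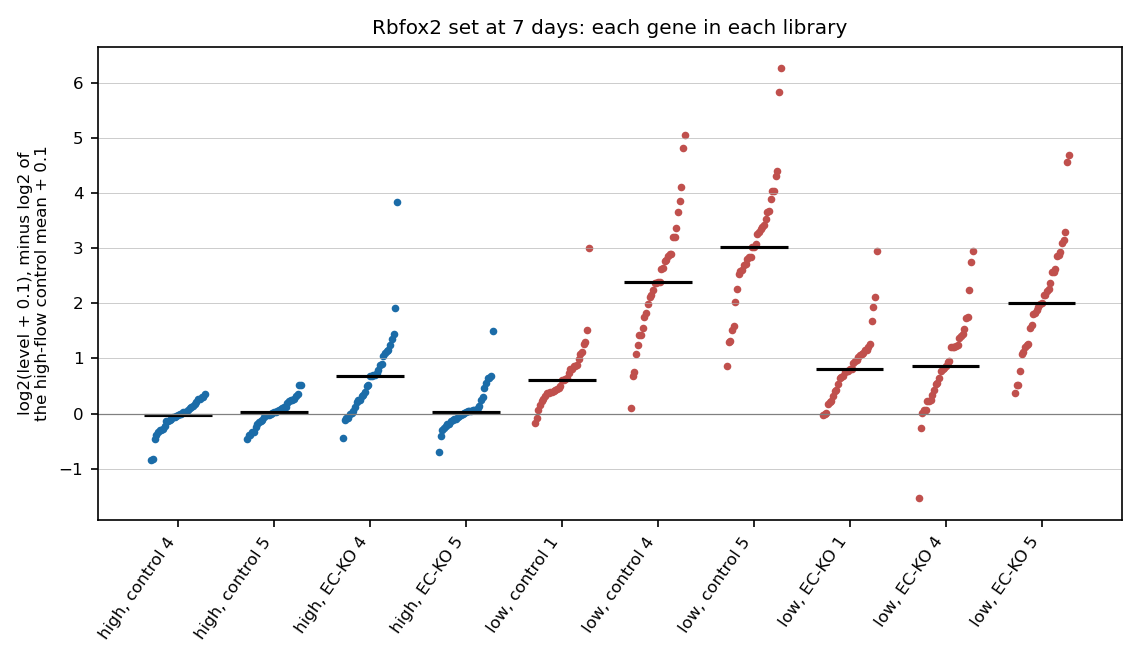
Each of 33 replication genes in each library of the Rbfox2 set at 7 days, as log2 of the level plus 0.1 minus the same for the mean of the high-flow control libraries, with a bar at the median of the genes. Low-flow control libraries 4 and 5 lie highest, low-flow EC-KO library 5 next, and low-flow control library 1 lies near the low-flow EC-KO libraries 1 and 4.

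In the cell line the summed level of the replication genes stayed close to its untreated value with each addition. The 37 genes summed to 2519 in untreated cells, 2424 with platelets and macrophages, 2339 with plasma and 2255 with plasma, platelets and macrophages, and there were no replicates. Macrophage markers summed to 12.8, 315, 35.6 and 228 in that order, and the part of the added cells in these levels was not tested. Past 2-fold higher than in untreated cells were 0 of the 36 genes compared with platelets and macrophages (3.81% of all genes), 1 of 37 with plasma (4.16%) and 1 of 37 with all additions (7.4%). The gene was Rrm2 in both cases. It was at 40.4 in untreated cells, 71.8 with platelets and macrophages, 92 with plasma and 164 with all additions, a log2 ratio of 2.02 for the last. Past 2-fold lower were 0 of the 36 with platelets and macrophages (4.39% of all genes), 1 of 37 with plasma (5.65%) and 0 of 37 with all additions (9.51%). The gene was Ung (log2 ratio -2.15), which was at 1.43 in untreated cells, 0.198 with platelets and macrophages, 0.322 with plasma and 0.923 with all additions. Median log2 ratios over the 36, 37 and 37 genes compared were -0.05, -0.09 and -0.19, against 0.01 or less over all genes compared.

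Licensing genes in the line, given as levels in untreated cells, with platelets and macrophages, with plasma and with all additions, were 60.9, 47.2, 53.9 and 55.8 for Orc6, 5.23, 6.76, 5.33 and 6.21 for Cdc6 and 36.9, 37.2, 33.7 and 27.7 for Cdt1. Helicase genes in the same order were 129, 133, 129 and 121 for Mcm2, 67.1, 77.2, 65.3 and 57 for Mcm5, 4.3, 4.01, 4.03 and 4.6 for Mcm10 and 15.8, 12.4, 13.2 and 15.3 for Gins1. All 7 of these genes stayed within 2-fold. Mcm6 was the most abundant of the 37 in untreated cells and went from 369.6 to 214 with all additions. Clamp and loader genes were 328, 275, 258 and 247 for Pcna, 32.2, 26.9, 27.6 and 23.7 for Rfc1 and 48.3, 45.9, 48.2 and 54.7 for Rfc3. Polymerase and primase genes were 17.5, 18.1, 16.5 and 14 for Pola1, 83.8, 63.2, 68.5 and 52.4 for Prim1, 17.6, 19.2, 14.1 and 13.6 for Pold1 and 7.7, 5.27, 4.85 and 5.53 for Pole. Of these 7 genes only Rfc3 was higher with all additions than in untreated cells. RPA and maturation genes were 67.9, 79.6, 111 and 86.4 for Rpa1, 41.5, 33, 35.7 and 29.9 for Rpa2, 68.5, 61.7, 61.2 and 65.2 for Fen1 and 21, 18.8, 14.5 and 11.3 for Lig1. Lig1 had the lowest ratio of the 37 with all additions, -0.89 on the log2 scale. Nucleotide supply genes were 60.7, 62.2, 61.2 and 71.6 for Rrm1, 24.6, 23.9, 24 and 28.8 for Tyms, 44.5, 44, 56.8 and 67.9 for Tk1 and 50.9, 39.2, 40.6 and 61.6 for Dut, all 4 of them higher with all additions than in untreated cells but by less than 2-fold.

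In primary cultures the 37 genes summed to 889 in EC-KO cells and 863 in control cells, and 0 of the 36 compared were past 2-fold, where 3.65% of all genes were past 2-fold higher and 3.02% lower. The median log2 ratio was 0.02. Rbfox2 itself was at 0.6003 in the EC-KO and 8.58 in the control culture. Macrophage markers summed to 1.72 in the EC-KO and 301 in the control culture, and their part in these levels was not tested. Ratios ran from -0.67 for Rrm2 (37.9 in EC-KO and 60.4 in control) to 0.68 for Pola1 (8.08 and 5.03). Licensing and helicase genes were at 27.6 and 23.4 for Orc6, 6.9 and 6.65 for Cdc6, 7.75 and 9.62 for Cdt1, 36.2 and 37.5 for Mcm2, 34.6 and 29.4 for Mcm5, 4.92 and 4.83 for Mcm10 and 6.95 and 6.11 for Gins1 in EC-KO and control cells. Clamp, loader and polymerase genes were at 98.5 and 68.5 for Pcna, 8.71 and 10.5 for Rfc1, 13 and 14.6 for Rfc3, 12.6 and 14.4 for Prim1, 12.6 and 9.36 for Pold1 and 3.31 and 3.08 for Pole. No gene of these groups differed by more than 2-fold between the genotypes in culture. The others were at 38.4 and 33.9 for Rpa1, 20.2 and 21.4 for Rpa2, 37.2 and 43.6 for Fen1, 10.02 and 9.63 for Lig1, 49.4 and 53.7 for Rrm1, 8.68 and 8.58 for Tyms, 39.8 and 30.8 for Tk1, 10.5 and 11.2 for Dut and 0.458 and 0.251 for Ung. The eGFP+ culture, sequenced with the untreated set, summed to 2690, with Pcna at 394, Rrm2 at 201 and Tk1 at 197. Its licensing and helicase genes were at 130.1 for Orc6, 24.3 for Cdc6, 11.3 for Cdt1, 31 for Mcm2, 64.8 for Mcm5, 6.96 for Mcm10 and 25.3 for Gins1. Its loader, primase and polymerase genes were at 23.1 for Rfc1, 75.5 for Rfc3, 4.29 for Pola1, 88.6 for Prim1, 9.6 for Pold1 and 1.99 for Pole. Rpa1 and Fen1 were the highest of the others, which were at 104 for Rpa1, 96.6 for Rpa2, 112 for Fen1, 35.7 for Lig1, 87.2 for Rrm1, 70.2 for Tyms, 41 for Dut and 8.16 for Ung.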

How the data were processed

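The authors aligned the reads to mm9 with STAR 2.5.1b and, per the labels, estimated expression with RSEM 1.2.15. The deposited table holds an expected count per gene and library, of which 42 columns were used here, and per-gene lengths. Another 162 columns of per-sample values, among them 26 of counts, were not used here, and 1 row without usable values was left out. Expected counts were rounded to whole numbers and tested with edgeR 4.0.16 (filterByExpr, TMM, quasi-likelihood F test, Benjamini-Hochberg adjustment over all genes tested, threshold 0.05) in R 4.3.3, with DESeq2 1.42.0 as an alternative. The untreated 48 hr set was fitted for each pair of groups, the depletion set over its 7 groups and the 7 day set over its 4 groups. The pools of the untreated 48 hr sequencing have a column for each of 2 runs, which the file header names technical replicates. Only the first run was used, since the labels give 1 sample per pool without its letter, so that the 2 columns could be placed only by group. At 7 days the repeat sequencing of low-flow control library 5 and EC-KO library 4 was used. Levels are FPKM from effective lengths and the library totals, divided by TMM factors over the 42 libraries. Single libraries were compared as ratios where both had at least 10 counts.

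The 37 genes, the other gene lists and the markers were chosen with earlier results of these data known. Values in every library are given for a fixed set of 24 of the genes covering each role, and for the others their counts, ranges or fold changes. In each comparison of replicated groups the 3 genes with the highest and the 3 with the lowest changes are named (Ung aside where a group had almost no counts of it), and those whose call differs from most, except for flow under PBS liposomes. At 7 days the deviations of same-numbered low-flow control and EC-KO libraries from their group means correlated at 0.17 to 0.489 over 3 pairs, which treats the library number as a pairing, and fits with it as a block are given where they change a count. Alternatives were other size factors, no filter, library totals alone, each library left out in turn, fits on 2 groups alone and a replicate block. Using totals alone, leaving out the libraries numbered 1 or pools a and b, and the test between control treatments were chosen after seeing the data.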

Additional observations from a re-analysis of the deposited data

How the results depend on the processing

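Of 292 alternative fits of the 17 counts of called genes, 229 stayed within 1.5 times the count reported, 31 gave more and 32 fewer, and no called gene changed sign with library totals alone. For low flow against sham the count of 34 became 19 with library totals alone and 0 without low-flow pools a and b. For anti-GPIba it went from 11 to 30 with DESeq2, 25 without a filter, 31 with 2 groups alone and 25 with the replicate block. For anti-Gr1 it was 3 with DESeq2 and 17 with 2 groups alone. Under PBS liposomes it was 26 for flow with 2 groups alone. Against high flow, 2 groups alone gave 3 for anti-GPIba, the block gave 1 for anti-Gr1, and clodronate gave 9 with DESeq2, 2 without a filter and 2 with the block. For flow in control carotids at 7 days it was 31 with DESeq2, 10 without a filter, 0 with totals alone, 33 with the block and 35 without the libraries numbered 1. For flow in EC-KO carotids it was 7 with the block and 8 without the libraries numbered 1, and for EC-KO against control in low flow 1 without them. The cause was not tested. Shares of all genes are not repeated here, and for several of these fits none is given. Counts without a share cannot be set against the rest of the genes.

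Leaving out each library in turn gave 33 to 35 genes for low against high flow, 26 to 35 against sham, 0 to 1 for high flow against sham, 0 to 30 for anti-GPIba, 0 to 9 for clodronate, 4 to 33 for flow under IgG, 0 to 27 for flow under PBS liposomes, 0 to 1 for anti-Gr1 against high flow, 0 to 25 for clodronate against high flow, 0 to 35 for flow in control carotids at 7 days, 0 to 1 in EC-KO carotids and 0 to 13 for EC-KO against control in low flow. It gave 0 throughout for the remaining 5 comparisons. These ranges are given without shares of all genes and cannot be set against the rest of the genes. The planned use of the second or summed sequencing runs was not run, since a group would then hold more columns than the labels give samples, and its effect is not known. A lone library left in a group is assumed to vary like the other groups.

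For the untreated 48 hr set alone, no paired analysis was possible because its pools carry letters that the labels do not tie to mice. In the depletion set same-numbered libraries share only a number, with correlations of -0.155 to 0.443, and the replicate block gave 32 and 25 genes for flow under IgG and PBS liposomes and 0 for anti-Gr1. Groups of 2 libraries limit what the test can call, and genes near the count floor, such as Ung in the depletion set, carry little weight.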
